A study of Danio rerio with 2 samples.

Results

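The 114 genes described here had at least 2-fold lower values in the library of clbn mutant zebrafish larvae than in the library of wildtype larvae. They were chosen by a rule on the deposited gene values. Every Refseq ID (1 gene model of the reference collection) with a wildtype value of at least 1 was kept when its mutant value was at most 0.5 of its wildtype value. Of 10223 IDs with a value, 10075 reached the wildtype minimum and 119 of these met the ratio. The 5 IDs left out by the rule were amy2a, grifin, selenoe, NM_199877 and rnpc3 (NM_001039930), the last being the gene mutated in clbn. The 114 IDs are 109 named genes, of which nr5a5 is listed under 2 IDs, and 4 IDs with no name in the annotation used (NM_001045372, NM_001177341, NM_201048 and NM_201503). Because the values selected the genes, each ratio below is a description and carries no test.

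The mutant larvae were homozygous for clbns841, an allele of caliban (clbn), and the wildtype larvae were homozygous wildtype. Both groups were whole larvae at 108 hours post-fertilization, kept at 28.5 °C, and both had received 0.003% 1-phenyl-2-thiourea (PTU), which blocks pigment formation, from 24 hours on. Larvae were genotyped singly, and RNA from about 60 larvae of 1 genotype was pooled for 1 polyA-selected SOLiD library a group. With 1 library a group no difference has a replicate error, so no p-value is given and the intervals are 95% intervals for counting error only. The clbns841 library had 25718058 reads and the wildtype library 28309779. The mutated gene, rnpc3, had a value of 2.503 in the mutant library and 5.70 in the wildtype library, from 109 mutant and 273 wildtype reads (ratio 0.440, interval 0.349 to 0.551). The gene values carry no unit. They came out as whole reads over whole lengths, scaled by library total, and are read here as reads per kilobase of unique exon. On that reading values may be compared between libraries. Between genes they are less certain, as close copies can share reads.

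The protein made from rnpc3 belongs to the minor spliceosome, the machinery that removes a rare class of introns, the U12-type. Acinar cells of the exocrine pancreas store digestive enzymes as inactive precursors and release them into the gut, and these enzymes are among the most abundant messages of a feeding-stage fish larva. The lens of the eye is built of fibre cells packed with crystallins, stable proteins that fill the cell and give it its refractive power, together with a few membrane proteins such as aquaporins. The liver and the intestine carry out most drug metabolism, gluconeogenesis and lipid handling. Roles of genes named below are those known from mammals or zebrafish and are background, not results.

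By reads, the largest block was that of pancreatic digestive enzymes, with 20 IDs, and lens genes the next named organ, with 15. Metabolism and transport took 30 IDs, nuclear and RNA-related proteins 12, proteins of cilia, membranes and the cytoskeleton 11, signalling and immune proteins 8, and 18 had no described function. All 114 together held 1.59% of gene reads in the mutant library and 4.46% in the wildtype library. The enzymes alone held 1.02% in the mutant library and 3.02% in the wildtype library. The share of all tested IDs at a ratio of 0.5 or less was 1.18%, and 54 IDs (0.536%) had a ratio of 2 or more. The median ratio was 0.409 over the 114 (range 0.107 to 0.499) and 1.03 over all 10075. In 32 of the 114 the mutant value was at least 3-fold lower.

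**Figure D1:**
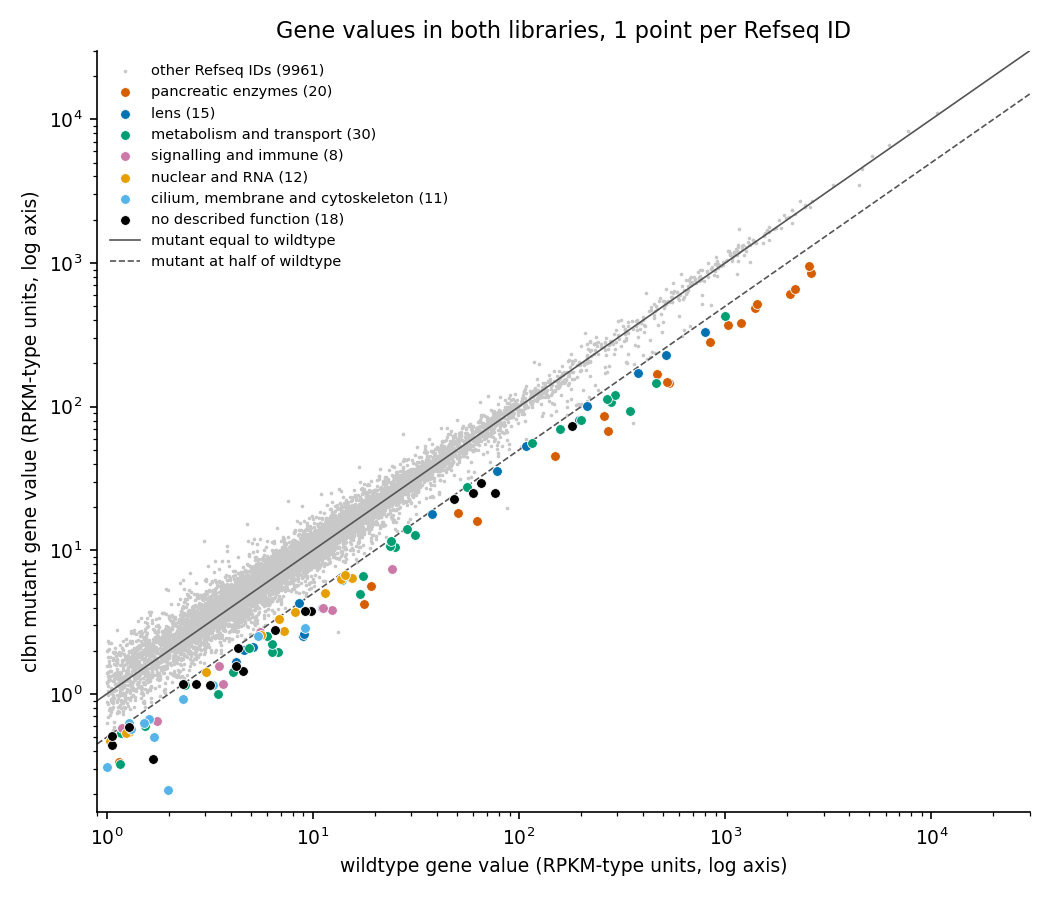
Gene value in the clbn mutant library (vertical, log axis) against the wildtype library (horizontal, log axis), with 1 point per Refseq ID and colours for the groups described. The 114 IDs lie on or under the dashed line by the rule that chose them, and the enzymes fill the upper end, with wildtype values up to 2618.

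The set took a larger share of the genes with high wildtype values. Of 497 IDs with a wildtype value of at least 100, 31 were among the 114 (6.24%), against 46 of 6253 (0.736%) at values of 5 to 100 and 37 of 3325 (1.11%) under 5. Of 78 IDs at 1000 or more, 9 were among them, and 8 of these were digestive enzymes. The low end is less firmly measured. Fewer than 100 wildtype reads stood behind 40 of the 114 and fewer than 20 mutant reads behind 30, while 51 had their whole counting interval at 0.5 or less and 10 had an upper limit above 1. For 12 IDs, among them cela1.3, sult2st1, ablim3, dr1, map4k2 and fgf7, the exon length that came out with the reads was under 200 bp. A common factor may be missing from the reads of these 12, and their intervals may be too wide. RNA came from whole larvae, so fewer cells of a type and less RNA per cell cannot be told apart.

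Elastases are serine proteases that cut elastin and other proteins, and 5 of their genes were among the 114. The lowest ratio among the 20 enzymes was that of cela1.3, with 4.22 in the mutant library and 17.8 in the wildtype library (19 mutant and 88 wildtype reads, ratio 0.238, interval 0.137 to 0.393). Its neighbour cela1.6 stood far higher, at 658 in the mutant library and 2173 in the wildtype library (14869 mutant and 54023 wildtype reads, ratio 0.303, 0.298 to 0.309). The genes ela2, ela2l and ela3l had values of 519, 483 and 384 in the mutant library, against 1428, 1392 and 1189.7 in the wildtype library. Their ratios were 0.363 (interval 0.356 to 0.371), 0.347 (0.340 to 0.355) and 0.323 (0.315 to 0.331), and these intervals did not overlap. The genes ela2 and ela2l are neighbours on chromosome 8, and ela3l lies on chromosome 5.

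A trypsinogen and a chymotrypsinogen gene had the 2 highest wildtype values of the 114. The trypsinogen gene prss1 had 854 in the mutant library and 2618 in the wildtype library, the highest wildtype value of the 114 (18101 mutant and 61069 wildtype reads, ratio 0.326, 0.321 to 0.332). The other trypsinogen gene, prss59.1, had 610.4 in the mutant library and 2055 in the wildtype library, a ratio of 0.297. For ctrb.1, a chymotrypsinogen B, the values were 945 in the mutant library and 2539.9 in the wildtype library (17531 mutant and 51842 wildtype reads), and its ratio of 0.372 (0.366 to 0.379) was the highest among the 20 enzymes. Its neighbour ctrb.3 (ratio 0.362) and the chymotrypsin-like ctrl (ratio 0.331) had 169 and 281 in the mutant library, against 466 and 848 in the wildtype library.

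Carboxypeptidases trim amino acids from the ends of peptides, and the B-type gene cpb1 and several A-type genes were among the 114. For cpb1, which takes off basic residues, the value was 149 in the mutant library and 524 in the wildtype library (2551 mutant and 9850 wildtype reads, ratio 0.285, 0.273 to 0.298). The A-type genes spanned a wide range of levels at similar ratios. The most abundant, cpa5, had 367 in the mutant library and 1028 in the wildtype library (ratio 0.357), and cpa4 had 45.7 in the mutant library and 149 in the wildtype library (ratio 0.307). The less abundant cpa1 had 18.1 in the mutant library and 50.8 in the wildtype library (ratio 0.355). Over all 20 enzymes, 19 had their whole counting interval at 0.5 or less.

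Bile-salt-activated lipases digest fats and vitamin esters, and both copies were near 4-fold lower in the mutant library. For cel.1 the values were 67.9 in the mutant library and 270.0 in the wildtype library (2575 mutant and 11268 wildtype reads, ratio 0.252, 0.241 to 0.263). For cel.2 they were 16.1 in the mutant library and 62.6 in the wildtype library (604 mutant and 2593 wildtype reads, ratio 0.256, 0.234 to 0.280). The astacin-type metalloproteases c6ast4 and c6ast3 followed. The more abundant c6ast4 had 146 in the mutant library and 534 in the wildtype library (3000 mutant and 12050 wildtype reads, ratio 0.274, 0.263 to 0.285), and c6ast3 had 5.61 in the mutant library and 19.2 in the wildtype library (ratio 0.292). The starch-digesting amylase amy2al2 had 86.5 in the mutant library and 258 in the wildtype library (ratio 0.335). Over the 20 enzymes, ratios ran from 0.238 to 0.372 with a median of 0.315, while wildtype values reached 2618.

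**Figure D2:**
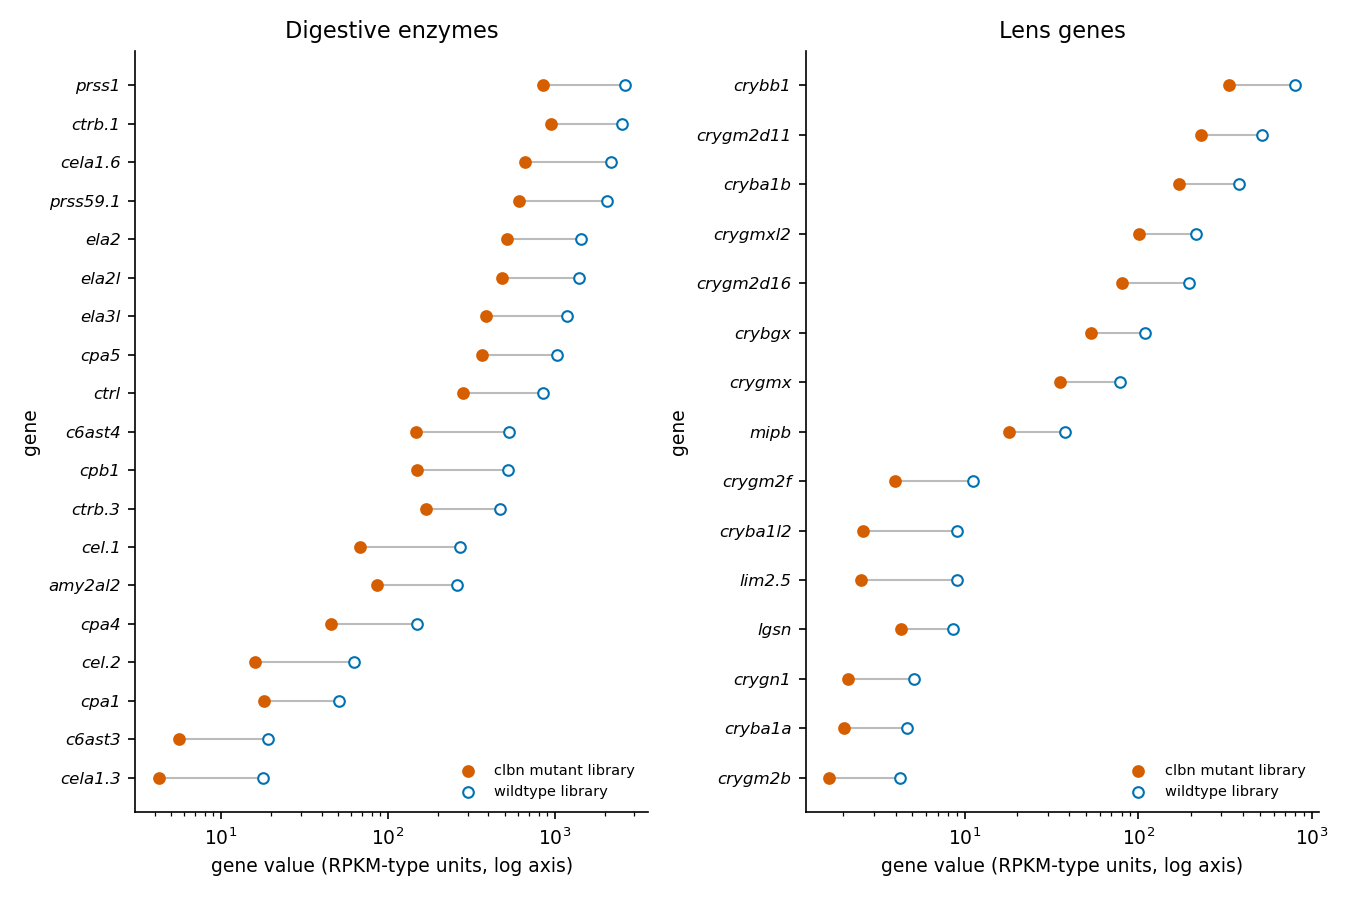
Gene values (log axes) in the clbn mutant library (filled) and the wildtype library (open) for 19 of the 20 digestive enzymes (left panel) and the 15 lens genes (right panel), sorted by wildtype value. In each gene the mutant value lies at 0.5 of the wildtype value or less, which the rule required, and the grey lines of the enzymes are longer, with a median ratio of 0.315 over all 20 against 0.437 for the lens.

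Enzyme genes of the pancreas that were measured but not chosen were few. The list of exocrine enzyme genes used here names 52 genes and was written with earlier results of these data known. From it, 23 IDs were measured and 20 had a ratio of 0.5 or less (median log2 ratio -1.63). These were 19 of the 114 and amy2a. The ratio of amy2a, which the rule left out, was 0.214, below that of each of the 20 enzymes. The remaining 3 were cela1.4 (ratio 0.541, with 15.7 in the mutant library and 29.1 in the wildtype library), endou (ratio 0.581) and prss60.2, which was higher in the mutant library (ratio 1.47). Transcription factors of the acinar cell and the pancreas did not pass this bound. Of 13 regulators measured, 0 had a ratio of 0.5 or less, which is near the share over all tested IDs (1.18%). Their median log2 ratio was 0.02. Among them ptf1a, the acinar master regulator, had 2.78 in the mutant library and 2.41 in the wildtype library (ratio 1.16, interval 0.842 to 1.59). The lowest was hnf4a (ratio 0.739) and the highest prox1a (ratio 1.44).

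Genes of the endocrine pancreas and of gut hormone cells did not pass the 2-fold bound either. The 14 measured IDs, 7 hormone genes, 5 transcription factor genes and 2 convertase genes, had a median log2 ratio of 0.11 and ratios of 0.832 to 1.72. The lowest was the transcription factor gene arxa, and the 7 hormone genes ran from 0.890 (sst2) to 1.72 (gcga). Insulin (ins) had 33.0 in the mutant library and 36.0 in the wildtype library, a ratio of 0.916. Genes of the endoplasmic reticulum's secretory machinery and its unfolded protein response, which acinar cells use heavily, had ratios of 0.618 to 1.92 over 71 IDs, with 0 at 0.5 or less and a median log2 ratio of 0.20. Counts of 0 in this list and in the endocrine list are near the share over all tested IDs, 1.18%. The summed value of 7 exocrine markers was 3748 in the mutant library and 11129 in the wildtype library. All 7 are among the genes chosen for a low ratio, so the rule itself made this sum lower. That of 3 endocrine markers, none of them chosen, was 60.34 in the mutant library and 64.80 in the wildtype library.

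Lens genes among the 114 were 12 crystallins and 3 other lens proteins, with ratios of 0.281 to 0.497 and a median of 0.437. The lowest ratio was that of lim2.5, a lens fibre membrane protein, with 2.53 in the mutant library and 8.98 in the wildtype library (57 mutant and 223 wildtype reads, ratio 0.281, 0.207 to 0.378). The fibre cell aquaporin mipb had 17.9 in the mutant library and 37.9 in the wildtype library (ratio 0.473). The lengsin gene lgsn, at 4.28 in the mutant library and 8.61 in the wildtype library, lay just inside the bound (ratio 0.497).

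The most abundant crystallin of the set was crybb1, a beta-B crystallin, at 331 in the mutant library and 802 in the wildtype library (7929 mutant and 21151 wildtype reads, ratio 0.413, 0.402 to 0.423). Among beta-A crystallins, cryba1b had 172 in the mutant library and 379 in the wildtype library (4537 mutant and 10988 wildtype reads, ratio 0.455, 0.439 to 0.471). The scarce cryba1l2 had a lower ratio, at 2.60 in the mutant library and 9.05 in the wildtype library (98 mutant and 375 wildtype reads, ratio 0.288, 0.228 to 0.360). The other beta-A gene cryba1a (ratio 0.437) stood at 2.03 in the mutant library and 4.64 in the wildtype library. The crystallin genes crybgx (ratio 0.489) and crygn1 (ratio 0.415) completed the set outside the gamma-M family.

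Gamma-M crystallins are a fish family that gives the lens its high protein density. The most abundant here was crygm2d11, with 230.3 in the mutant library and 514 in the wildtype library (1297 mutant and 3187 wildtype reads, ratio 0.448, 0.420 to 0.478). A pair of scarce members had the lowest ratios of the family. For crygm2f the values were 3.99 in the mutant library and 11.1 in the wildtype library (41 mutant and 126 wildtype reads, ratio 0.358, 0.245 to 0.513). For crygm2b they were 1.66 in the mutant library and 4.23 in the wildtype library (ratio 0.393, 0.111 to 1.16). Only 5 mutant and 14 wildtype reads of crygm2b could be recovered, and a common factor may be missing from them. The other members were crygm2d16 (ratio 0.415), crygmx (ratio 0.454) and crygmxl2 (ratio 0.473). The genes crygm2b, crygm2d11 and crygm2d16 lie on chromosome 9 between 23102070 and 23191557 (Zv9), where 11 IDs were measured, and the other 8 had ratios of 0.513 to 0.654. Genes of this array are close copies that can share reads, so the value of any 1 of them is uncertain.

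The measured part of the lens list was lower in the mutant library, not only the IDs chosen. This list names 81 genes and was also written with earlier results of these data known. All 43 measured IDs had a log2 ratio below 0, with a median of -0.93. Of these, 16 had a ratio of 0.5 or less, 15 of the 114 and grifin. Among the 43 are gamma-M crystallin copies that can share reads, so they are not 43 separate measurements. The lens IDs just outside the bound were cryba1l1 (ratio 0.505, with 312 in the mutant library and 619 in the wildtype library) and crygm2d6 (ratio 0.508), and the highest ratio was that of crygm2d3 (0.897). Regulators of lens and eye development had 0 of 15 IDs at 0.5 or less and a median log2 ratio of 0.05. Photoreceptor genes had 0 of 43 and a median log2 ratio of -0.17. Both counts of 0 are near the share of all tested IDs at such a ratio, 1.18%.

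Genes of metabolism and transport formed the largest group by number, and 7 of its 30 are on the list of liver genes. The cytochrome P450 gene cyp3a65, which in zebrafish is expressed in liver and intestine, had 92.7 in the mutant library and 345 in the wildtype library (4767 mutant and 19550 wildtype reads, ratio 0.268, 0.260 to 0.277). Fetuin-A (ahsg1) had 1.95 in the mutant library and 6.74 in the wildtype library (72 mutant and 274 wildtype reads, ratio 0.289, 0.220 to 0.376). The fructose bisphosphatase fbp1b, an enzyme of gluconeogenesis, had 108 in the mutant library and 278 in the wildtype library (ratio 0.387). Apolipoprotein E (apoea) had a ratio of 0.403, the histidine ammonia-lyase gene hal 0.463 and the sulfotransferase gene sult2st1 0.479.

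Most of the liver list did not pass the bound. Of 77 measured IDs, these 7 had a ratio of 0.5 or less (9.09%), 53 had a log2 ratio below 0 and the median was -0.18, where the median over all 10075 IDs was 0.05. The 4 measured hepatocyte markers were split. The summed value, 1860 in the mutant library and 1759 in the wildtype library, was mostly apoa1a, with 1336 in the mutant library and 1154 in the wildtype library (ratio 1.16). The marker fabp10a had a ratio of 1.04, while cp (0.717) and serpina1 (0.653) were lower in the mutant library. On the intestine list, 0 of 35 IDs had a ratio of 0.5 or less, near the share of 1.18% over all tested IDs. The median log2 ratio of this list was -0.24 and 28 IDs lay below 0. The lowest were the nutrient transporters slc6a19b (ratio 0.534) and slc15a1b (ratio 0.556). The gene cyp3a65 (ratio 0.268), expressed in both organs, was counted on the liver list and not on the intestine list.

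Mitochondrial and drug-metabolizing genes held further large differences. The mitochondrial carrier ucp1, an uncoupling protein, had 146 in the mutant library and 459.9 in the wildtype library (8622 mutant and 29943 wildtype reads, ratio 0.317, 0.309 to 0.325). The ketone body enzyme gene oxct1b had 4.95 in the mutant library and 17.0 in the wildtype library (66 mutant and 249 wildtype reads, ratio 0.292, 0.219 to 0.384). The P450 gene cyp2x8 was scarcer, with 1.00 in the mutant library and 3.48 in the wildtype library (24 mutant and 92 wildtype reads, ratio 0.287, 0.175 to 0.454), and the P450 gene cyp2n13 had a ratio of 0.406. The nuclease dnase1 had 0.327 in the mutant library and 1.16 in the wildtype library (10 mutant and 39 wildtype reads, ratio 0.282, 0.126 to 0.576). The other nuclease was endou2, a relative of poly(U)-specific endoribonucleases (ratio 0.349).

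Lipid genes were the fatty acid amide hydrolase faah2b (ratio 0.307), the fatty acid elongase elovl2 (0.381), the esterase nceh1b.1 (0.425) and the acyl-CoA synthetase acsl5 (0.452). Iron and haem genes were the ferritin-like fthl28 (0.438) and fthl29 (0.412) and the haem oxygenase hmox1a (0.449). The 2 ferritin-like genes stood at 69.5 and 121 in the mutant library, against 159 and 293 in the wildtype library. Vitamin and cofactor genes included mocs3 of molybdenum cofactor synthesis (0.457) and the retinol dehydrogenase rdh1 (0.494). Transport genes were the aquaporin aqp12, whose mammalian relative is known from acinar cells (ratio 0.420, with 10.5 in the mutant library and 25.0 in the wildtype library), the dicarboxylate carrier slc13a2 (0.484), the cation-chloride cotransporter slc12a10.1 (0.393) and the transporter scaffold pdzk1 (0.493). The lactase-like lctlb (0.348), the cathepsin L gene ctsl.1 (0.422) and the uridine phosphorylase upp2 (0.483) were also in the group.

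Signalling and immune genes among the 114 were all of low or moderate level. The highest was capn3a, a calcium-dependent protease, with 7.38 in the mutant library and 24.1 in the wildtype library (611 mutant and 2197 wildtype reads, ratio 0.306, 0.279 to 0.335). The phospholipase C gene plcd1b had 3.99 in the mutant library and 11.2 in the wildtype library (306 mutant and 949 wildtype reads, ratio 0.355, 0.311 to 0.404), and it was the only other member of the group whose interval stayed under 0.5. The kinase gene map4k2 had 3.85 in the mutant library and 12.4 in the wildtype library (9 mutant and 32 wildtype reads, ratio 0.310, 0.130 to 0.664). A common factor may be missing from the map4k2 reads, so this interval may be too wide. The T cell receptor zeta chain gene cd247 had 1.18 in the mutant library and 3.69 in the wildtype library (7 mutant and 24 wildtype reads, ratio 0.321, 0.117 to 0.768). The growth factor gene fgf7 had 0.644 in the mutant library and 1.76 in the wildtype library. Its 3 mutant and 9 wildtype reads may lack a common factor, and the interval from them (0.0639 to 1.47) included 1. The chemokine gene ccl33.3 (ratio 0.449), the kinase gene camk1gb (0.486) and the cytokine gene cntf (0.492) completed the group.

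Nuclear and RNA-related genes lay nearest to the bound as a group, with a median ratio of 0.454, and none of the 12 had its interval wholly at 0.5 or less. The intervals of rp9, dr1 and xrcc5 may be too wide, as a common factor may be missing from their reads. The 2 IDs of nr5a5, a nuclear receptor, overlap, so they can share reads, and they had 6.32 and 6.72 in the mutant library, against 13.7 and 14.3 in the wildtype library (333 and 281 mutant reads, 797 and 660 wildtype reads, ratios 0.460, 0.403 to 0.523, and 0.469, 0.406 to 0.540). The MYC-binding protein gene mycbp had 6.39 in the mutant library and 15.5 in the wildtype library (74 mutant and 197 wildtype reads, ratio 0.413, 0.312 to 0.543). The lowest ratio was that of rp9, linked to retinitis pigmentosa in humans, with 2.76 in the mutant library and 7.23 in the wildtype library (9 mutant and 26 wildtype reads, ratio 0.381, 0.157 to 0.839).

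The transcription regulator genes znf1160, eve1 and dr1 had few recovered reads, and those of dr1 may lack a common factor. The zinc finger gene znf1160 had 0.541 in the mutant library and 1.28 in the wildtype library (15 mutant and 39 wildtype reads, ratio 0.423, 0.217 to 0.786). The homeobox gene eve1 had 0.537 in the mutant library and 1.23 in the wildtype library (17 mutant and 43 wildtype reads, ratio 0.435, 0.233 to 0.779). The repressor dr1 had 5.02 in the mutant library and 11.4 in the wildtype library (4 mutant and 10 wildtype reads, ratio 0.440, 0.101 to 1.53). The others were the chromatin-remodelling subunit actl6b (ratio 0.452), the pseudouridine synthase-like pus7l (0.456), the GTPase drg2 (0.458), the DNA end-joining gene xrcc5 (0.472) and pcid2 of messenger RNA export (0.480). Of 17 minor spliceosome IDs on a separate list, 0 were among the 114, and rnpc3 was the only one at a ratio of 0.5 or less. Over all tested IDs, 1.18% had such a ratio.

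Genes of cilia, membranes and the cytoskeleton were scarce, with wildtype values of 1.00 to 9.16. The tetraspanin gene tspan33b had the lowest ratio of all 114, with 0.214 in the mutant library and 1.99 in the wildtype library (4 mutant and 41 wildtype reads, ratio 0.107, 0.0279 to 0.297). The keratin gene krt93 had 0.502 in the mutant library and 1.70 in the wildtype library (18 mutant and 67 wildtype reads, ratio 0.296, 0.165 to 0.504). The membrane protein gene tmem117 had 0.309 in the mutant library and 1.00 in the wildtype library (7 mutant and 25 wildtype reads, ratio 0.308, 0.113 to 0.733). The 3 genes with the highest wildtype values were ablim3, an actin-binding LIM protein, napga, a gamma-SNAP of vesicle fusion, and scpp9, a secreted phosphoprotein.

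For ablim3 the values were 2.88 in the mutant library and 9.16 in the wildtype library, but only 2 mutant and 7 wildtype reads could be recovered (ratio 0.315, 0.0319 to 1.65). For napga they were 2.53 in the mutant library and 5.40 in the wildtype library (72 mutant and 169 wildtype reads, ratio 0.469, 0.351 to 0.621). For scpp9 they were 1.16 in the mutant library and 3.28 in the wildtype library (27 mutant and 84 wildtype reads, ratio 0.354, 0.220 to 0.552). The 3 genes of motile cilia and dynein followed, the dynein regulatory complex gene drc3 (ratio 0.418), the dynein assembly factor gene dnaaf6 (0.419) and the dynein light chain gene dynlt5 (0.432). The upper limits of their intervals were 0.644, 0.986 and 0.896, all above 0.5. The remaining genes were fam78bb (0.392) and the stomatin-like stoml3a (0.486).

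The 18 IDs with no described function had a median ratio of 0.416. The lowest was si:dkeyp-73d8.6, with 0.353 in the mutant library and 1.69 in the wildtype library (4 mutant and 21 wildtype reads, ratio 0.210, 0.0523 to 0.621). The most abundant was zgc:158846, with 73.4 in the mutant library and 181 in the wildtype library (3607 mutant and 9761 wildtype reads, ratio 0.407, 0.391 to 0.423). It was followed by si:ch211-240l19.5, with 25.2 in the mutant library and 76.7 in the wildtype library (614 mutant and 2056 wildtype reads, ratio 0.329, 0.300 to 0.360). These 2 had narrow intervals, while the first rests on few reads. The unnamed NM_201048 had 29.2 in the mutant library and 65.5 in the wildtype library (1337 mutant and 3300 wildtype reads, ratio 0.446, 0.418 to 0.475).

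Another 3 of these IDs had ratios of 0.318 to 0.372. The values of zgc:136872 were 1.46 in the mutant library and 4.57 in the wildtype library (46 mutant and 159 wildtype reads, ratio 0.318, 0.224 to 0.445). Those of ugl were 1.15 in the mutant library and 3.18 in the wildtype library (63 mutant and 191 wildtype reads, ratio 0.363, 0.269 to 0.485). Those of si:dkey-286h2.3 were 1.58 in the mutant library and 4.24 in the wildtype library (23 mutant and 68 wildtype reads, ratio 0.372, 0.221 to 0.605). The other 11 were si:dkey-266f7.9, zgc:174972, si:dkey-14d8.7, si:dkey-14d8.6, NM_001177341, zgc:112496, zgc:172121, zgc:173594, NM_001045372, zgc:92590 and NM_201503, with ratios of 0.387 to 0.499. The last lay nearest to the bound of the 114. Among IDs with at least 100 wildtype reads, lgsn, rdh1 (0.494) and pdzk1 lay just inside it, and cryba1l1, crygm2d6 and the protease inhibitor gene spink2.1 (ratio 0.509) just outside.

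Lists for other organs and processes held almost none of the 114. The lists together named 41 of them, leaving 73 on no list. Skeletal muscle (62 IDs measured), neurons (46), skin (32), mitochondrial respiration (27), kidney and ionocytes (26), cartilage, bone and notochord (26), pigment cells (20), glia and myelin (17) and heart and vessels (16) had 0 IDs at 0.5 or less. Over all tested IDs the share was 1.18%, so a count of 0 in a list of such size is near that share. The median log2 ratios of these lists lay between -0.03 and 0.15. Single IDs came near the bound, with lowest ratios of 0.517 in skin, 0.517 in glia and myelin (mpz) and 0.530 in skeletal muscle. The myelin gene plp1b followed mpz at 0.532, and 6 of the 17 glia and myelin IDs had a log2 ratio below 0. The blood and immune list had 1 of 17, cpa5, which the exocrine list holds too. Proliferation (31 IDs) and ribosome biogenesis (29 IDs) had 0 as well and the highest medians, 0.35 and 0.37. Summed marker values were close to each other in muscle, with 21706 in the mutant library and 21179 in the wildtype library. The muscle sum took in 5 IDs for 4 markers, as tnnt3b was counted under more than 1 ID. They were also close in epidermis, with 5725 in the mutant library and 5694 in the wildtype library. In enterocytes the sum was lower, with 1072 in the mutant library and 1383 in the wildtype library. In photoreceptors it was 167 in the mutant library and 207 in the wildtype library, but the markers were split. The ratios were 0.751 for gnat2, 0.936 for gnat1 and 1.39 for opn1mw2 (interval 0.909 to 2.13). In neurons the sum was 206 in the mutant library and 226 in the wildtype library. It was lower through snap25a (ratio 0.853), while elavl3 had a ratio of 1.01 (interval 0.955 to 1.07). For the 2 notochord markers, col9a1a and col2a1a, the sum was higher, with 313 in the mutant library and 247 in the wildtype library. Both are on the list that joins cartilage, bone and notochord, so this sum cannot be assigned to notochord alone. The single erythrocyte marker measured, hbae3, had 835.5 in the mutant library and 609.96 in the wildtype library (ratio 1.37), and the single neutrophil and macrophage marker, lyz, had 15.1 in the mutant library and 21.5 in the wildtype library (ratio 0.705). Other IDs of the blood and immune list were split, with csf1ra at a ratio of 1.14, slc4a1a at 0.990 and spi1b at 0.819. Of its 17 IDs, 11 had a log2 ratio below 0, so 1 marker does not stand for its cell type. The part of cell numbers in any of these differences was not tested.

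**Figure D3:**
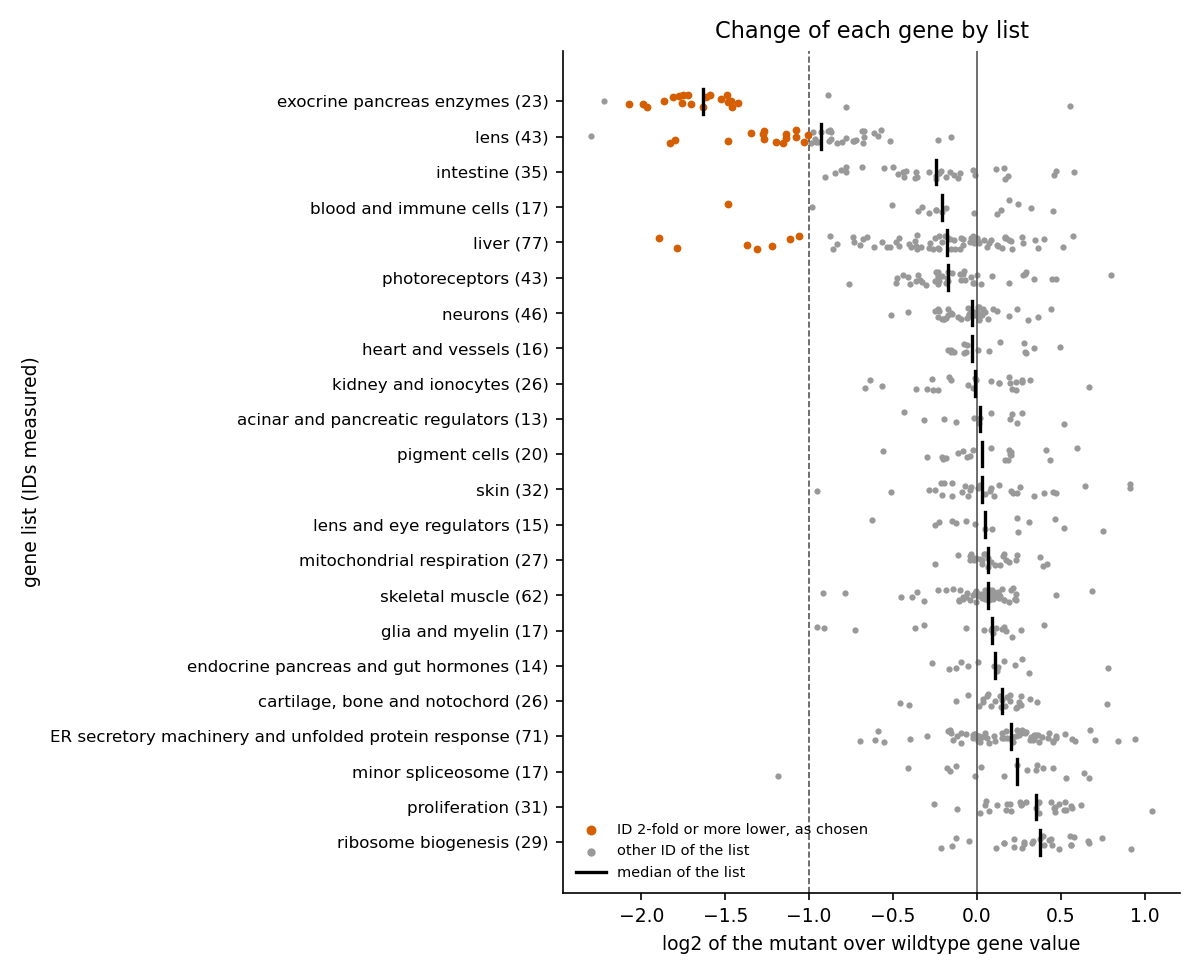
Log2 of the mutant over wildtype gene value (horizontal) for each measured ID of 22 gene lists, sorted by list median (black bars). IDs among the 114 are orange and stand left of the dashed line at -1, and they crowd in the exocrine enzyme list (median -1.63) and the lens list (median -0.93).

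Some of the 114 lie beside each other in the genome. On Zv9, 28 of them (24.6%) were within 100 kb of another gene of the set, in 13 clusters, where 292 of the 9961 other tested IDs (2.93%) lay as near to one of the set. The count leaves out the 2 IDs of nr5a5, which neighbour only each other. Clusters of enzyme genes included cela1.6 and cela1.3 on chromosome 22 (7477448 to 7521299), cel.2 and cel.1 on chromosome 21 (9812391 to 9835084), ctrb.3 and ctrb.1 on chromosome 7 (36517749 to 36533043), c6ast4 and c6ast3 on chromosome 7 (40027751 to 40035729), ela2l and ela2 on chromosome 8 (21907145 to 21919661), and cpa1 and cpa5 on chromosome 25 (18936033 to 18957897). The ratios of cpa1 and cpa5 were 0.355 and 0.357 and those of cel.2 and cel.1 were 0.256 and 0.252. Those of cela1.6 and cela1.3 were 0.303 and 0.238. The interval of cela1.3 (0.137 to 0.393) included the ratio of cela1.6, but its 19 mutant and 88 wildtype reads may lack a common factor. That interval may be too wide, so it does not show whether these ratios differ. The pair crygmx and crygmxl2 lay on chromosome 12, si:dkey-14d8.6 and si:dkey-14d8.7 on chromosome 4, and fthl28, fthl29 and zgc:173594 on chromosome 3 beside fthl31 (ratio 0.562). Neighbours in such arrays are often copies of 1 ancestral gene, and reads may be shared between close copies, so similar ratios of neighbours are not separate measurements.

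Not every neighbour of a lower gene was lower. Between slc13a2 and cryba1b on chromosome 21 lay unc119a2 with a ratio of 0.95. Between prss1 and zgc:92590 on chromosome 16 lay zgc:66448 with a ratio of 1.26.

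Reads in introns were fewer in the mutant library too. The 114 IDs have 454 listed introns with a gene value, and 223 of them, in 66 IDs, had at least 20 reads over both libraries and were counted. Scaled by library total, 163 of these 223 introns (73.1%) were 2-fold or more below their wildtype level, where the share over all 20223 introns of that depth was 7.05%. At least 2-fold higher were 3, where the share over all introns was 9.02%. The median log2 ratio was -1.41 for these introns and 0.06 for the 20000 introns of other genes. Below 0 were 209 of 223. The intronic reads come from the same libraries whose gene values chose the genes, so these counts describe the set and do not test it. The table lists only introns with at least 1 read in both libraries, so an intron read in 1 library alone is not analysed here.

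Summed over each gene's introns, the same held. Of 77 IDs with at least 20 intronic reads, 48 were 2-fold or more below their wildtype level, 0 were at least 2-fold above it, and 71 had a ratio below 1, with a median log2 ratio of -1.24. Over all 8286 IDs with at least 20 intronic reads, 3.01% were 2-fold or more below their wildtype level and 4.88% were 2-fold or more above it. Among enzymes, 19 of 19 were at least 2-fold lower. In lens genes it was 7 of 10, in metabolism and transport 15 of 25, with no described function 4 of 8, in signalling 1 of 3, in cilium, membrane and cytoskeleton genes 2 of 5, and in nuclear and RNA-related genes 0 of 7.

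**Figure D4:**
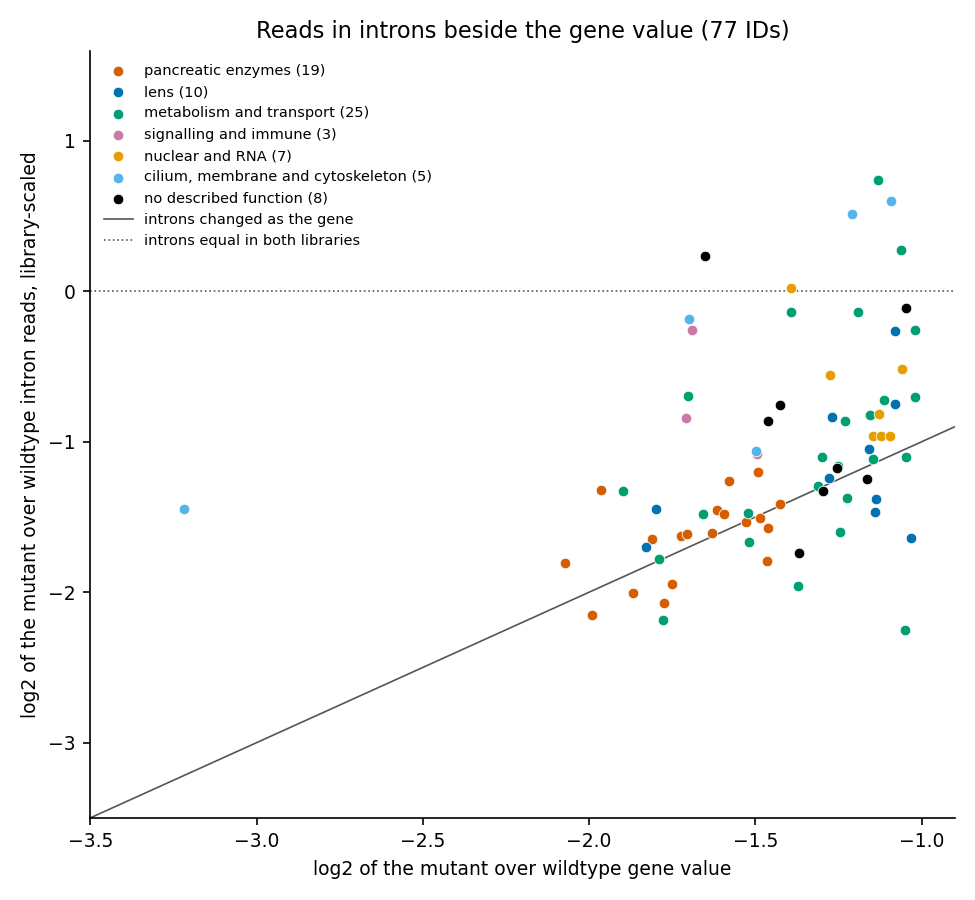
Log2 mutant over wildtype ratio of summed intronic reads, scaled by library total (vertical), against that of the gene value (horizontal), for the 77 IDs with at least 20 intronic reads. Enzymes (orange) lie near the diagonal, where introns and gene differ alike, while some scarce genes lie near or above the dotted line of equal intronic reads.

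Introns of the enzymes had the deepest coverage. Of 101 introns, 94 were 2-fold or more below their wildtype level and 101 had a log2 ratio below 0, with a median log2 ratio of -1.53. The most reads were in an intron of ela3l on chromosome 5 (27756246 to 27757213), with 1148 in the mutant library and 4110 in the wildtype library (log2 ratio -1.70). An intron of prss1 on chromosome 16 (27321689 to 27324172) had 796 reads in the mutant library and 2227 in the wildtype library (-1.35). An intron of ctrb.3 on chromosome 7 (36519177 to 36519637) had 501 reads in the mutant library and 2160 in the wildtype library (-1.97). The gene values themselves had log2 ratios of -1.63 in ela3l, -1.62 in prss1 and -1.47 in ctrb.3.

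The next in depth were introns of cela1.6 on chromosome 22 (7480329 to 7481314) and ctrb.1 on chromosome 7 (36530986 to 36531060). The cela1.6 intron had 482 reads in the mutant library and 1661 in the wildtype library (-1.65), and the ctrb.1 intron had 509 reads in the mutant library and 1608 in the wildtype library (-1.52). Every counted intron was at least 2-fold lower in cpa4 and cpb1, with 10 introns each, in ela3l with 7 and in c6ast4, ctrb.3 and ctrl with 6 each. The 7 introns that were not were 2 of 5 in cpa1 and 1 each in cpa5, ela2l, amy2al2, prss59.1 and cel.2. The cpa1 intron on chromosome 25 (18939269 to 18939379) had 26 reads in the mutant library and 32 in the wildtype library, a log2 ratio of -0.16.

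**Figure D5:**
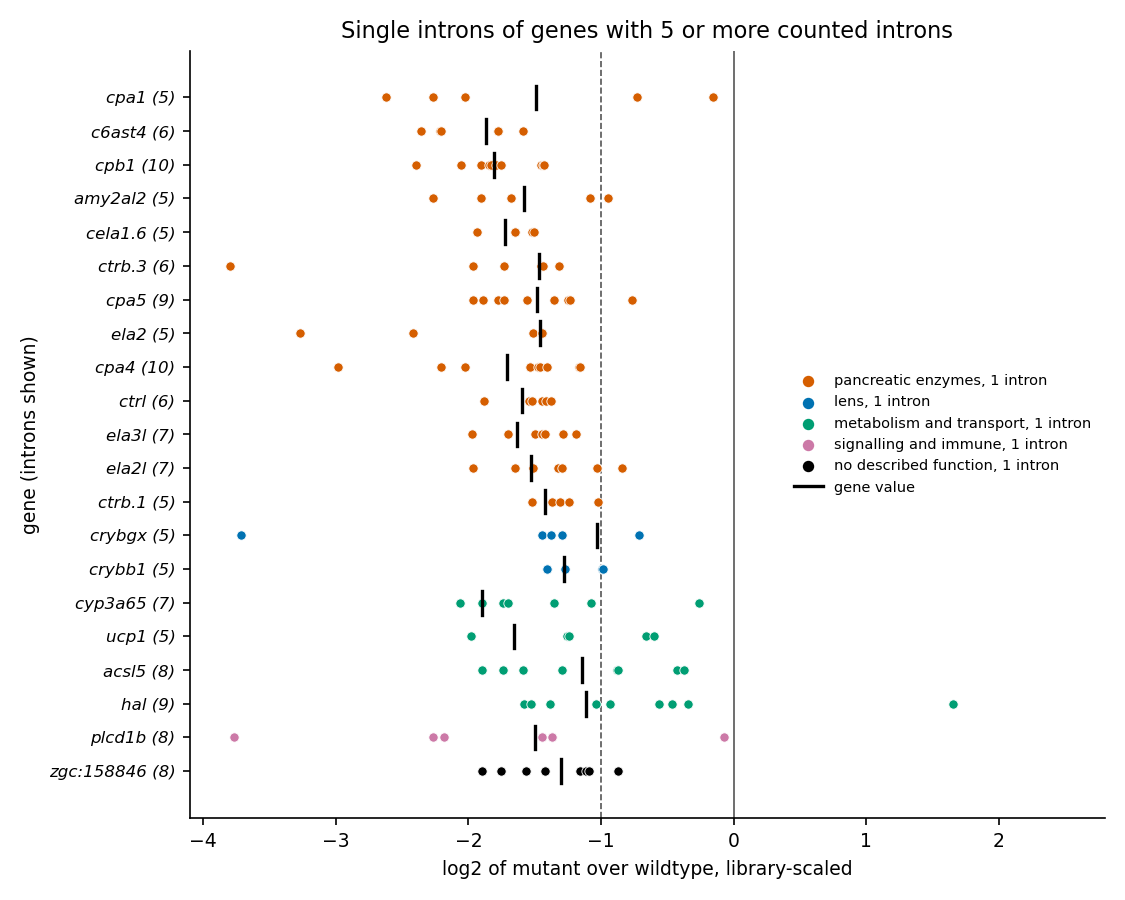
Log2 mutant over wildtype ratio of single introns, scaled by library total (points), and of the gene value (black bars) for 21 of the 22 genes with at least 5 introns of 20 or more reads. Most points lie left of the dashed line at -1 and around the bar of their own gene, and a single intron of hal lies right of 0, at 1.66.

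Lens introns were lower in 12 of 20 cases and below 0 in 20 of 20, with a median log2 ratio of -1.28. The intron of crygm2d16 overlaps much longer listed introns of 2 IDs without a symbol, so its 188 reads in the mutant library and 370 in the wildtype library cannot be assigned to 1 gene. In metabolism and transport 35 of 65 introns were at least 2-fold lower. In cyp3a65 it was 6 of 7, in zgc:158846 of no described function 7 of 8, and in hal 4 of 9. In plcd1b of the signalling group it was 7 of 8. Nuclear and RNA-related genes had 2 of 6, and the 6 include overlapping introns of both nr5a5 IDs that hold the same 7 reads in the mutant library and 15 in the wildtype library. In cilium, membrane and cytoskeleton genes it was 2 of 7.

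The lowest single ratios rested on few reads. They were those of introns in ctrb.3 on chromosome 7 (36520524 to 36520643), with 3 reads in the mutant library and 53 in the wildtype library (log2 ratio -3.80), and in plcd1b on chromosome 2 (21191678 to 21191803), with 1 read in the mutant library and 22 in the wildtype library (-3.77). An intron of crybgx on chromosome 7 (35566421 to 35567149) had 3 reads in the mutant library and 50 in the wildtype library (-3.71). An intron of c6ast3 on chromosome 7 (40034339 to 40034556) had 1 read in the mutant library and 21 in the wildtype library (-3.70). An intron of ela2 on chromosome 8 (21917589 to 21917724) had 2 reads in the mutant library and 26 in the wildtype library (-3.27). Relative to their own genes these 5 introns had log2 ratios of -2.68 to -1.81.

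The 3 introns that were at least 2-fold higher in the mutant library belonged to mocs3, hal and dynlt5. In mocs3 the intron on chromosome 17 (42651254 to 42654979) had 30 reads in the mutant library and 4 in the wildtype library (log2 ratio 2.90), while the other 2 counted introns of the gene had log2 ratios of -0.47 and -0.20. In hal the intron on chromosome 25 (8220318 to 8220994) had 21 reads in the mutant library and 7 in the wildtype library (1.66), and the other 8 ran from -1.58 to -0.35. In dynlt5 the intron on chromosome 2 (14241889 to 14274037) had 21 reads in the mutant library and 10 in the wildtype library (1.17). The other dynlt5 intron (14274163 to 14304979) had 36 reads in the mutant library and 34 in the wildtype library (0.22). So mocs3 and hal each had a single intron that stood apart from the rest of its gene.

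The next introns in order had ratios between 1 and 2. An intron of napga on chromosome 24 (961756 to 981520) had 67 reads in the mutant library and 37 in the wildtype library (log2 ratio 0.99), and another (990321 to 992824) had 13 in the mutant library and 12 in the wildtype library (0.25). The intron of sult2st1 on chromosome 12 (790826 to 829075) had 168 reads in the mutant library and 144 in the wildtype library (0.36), but it overlaps introns listed under its neighbour sult2st2, so the reads cannot be told apart. In fthl28 an intron of 94 bp on chromosome 3 (32242840 to 32242933) had 15 reads in the mutant library and 14 in the wildtype library (0.23). Introns of map4k2, elovl2 and pdzk1, the last with 2, tied at 0.14, with as many reads in the mutant library as in the wildtype library, 10 to 15 in each.

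Relative to the gene's own value, introns of the 114 were split. This ratio divides by the values that chose the genes, so it too is only a description. Of the 223 introns, 23 (10.3%) were at least 2-fold higher relative to their gene, where the share over all introns was 8.12%, and 12 (5.38%) were at least 2-fold lower, where the share was 6.53%. The median log2 ratio was 0.14 for these introns and 0.03 for introns of other genes. Enzymes had 3 higher and 5 lower of 101, with a median of 0.07. Metabolism and transport had 11 higher of 65, and cilium, membrane and cytoskeleton genes, whose counted introns had a median length of 9820 bp, had 6 higher of 7. The authors' intron retention coefficient, intron level over gene value, had a median of 0.0390 in the mutant library and 0.0408 in the wildtype library over introns of the 114, and of 0.0331 in the mutant library and 0.0322 in the wildtype library over the others.

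Of the 23 introns that were higher relative to their gene, the 3 of mocs3, hal and dynlt5 were also at least 2-fold higher when scaled by library total and the other 20 were not. The intron of tmem117 on chromosome 25 (995305 to 998206) had 116 reads in the mutant library and 149 in the wildtype library, more than the 7 reads of the gene itself in the mutant library and its 25 in the wildtype library, with a coefficient of 5.77 in the mutant library and 2.07 in the wildtype library. Scaled by library total its log2 ratio was -0.22, and relative to the gene 1.48. In elovl2 an intron on chromosome 24 (8684075 to 8687962) had 42 reads in the mutant library and 46 in the wildtype library, log2 ratios of 0.01 by library and 1.402 relative to the gene. The mocs3, hal and dynlt5 introns had log2 ratios of 4.03, 2.77 and 2.38 relative to the gene. Which introns of these genes are of the U12-type was not analysed here.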

How the data were processed

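Whole-larva RNA was read in 1 clbns841 library and 1 wildtype library. One table of introns was used, and start positions that count from 0 had 1 added, on the build Zv9 named in the submitters' processing notes. Aligner and counting rule: not given in the sources used here. Read counts per intron were deposited for both libraries as whole numbers. Per the file headers, intron levels were RPuKM, an RPKM per unique length, and the authors' deposited fold (ratio) and log2 columns were not used. The authors' gene values and retention coefficients are scores here because some cells hold no number. Gene values came out as whole reads over whole lengths for 10223 of 10223 IDs (tolerance 1e-06 bp), and the smallest solution was taken.

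The gene ratio is mutant over wildtype as deposited. Intron ratios were scaled by library total with 0.5 reads added to both libraries, for introns with at least 20 reads over both. Intervals are 95% exact (Clopper-Pearson) intervals of the 2 read numbers, and amplified reads are not independent molecules. In simulated data on 2000 genes, reads came out exact for 83.5% and smaller than the truth, by a shared divisor, for 16.5%. Intervals from the simulated reads themselves held the true ratio in 96.1%. Those reads varied by counting error only, so this does not check intervals from recovered or amplified reads. Genes named with full values were the 5 lowest ratios and the 3 highest wildtype values in each group, and introns the 10 highest, 5 lowest and 5 deepest. The members, groups and lists were chosen with earlier results of these data known. Gene symbols were taken from RefSeq's GRCz12tu annotation, which served only to name genes and held 9797 of 10223 IDs (95.8%). Some of the genes are counted in every total but not reported here by name. Promoters and proteins were not analysed here. Alternatives changed the scaling, the minimums and the pseudocount. Python 3.11.15, pandas 2.3.3, numpy 2.4.6, scipy 1.17.1 and matplotlib 3.10.9 were used.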

Additional observations from a re-analysis of the deposited data

How the results depend on the processing

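The number of IDs at a ratio of 0.5 or less, 114 as deposited, was 74 with at least 100 wildtype reads, 77 with a wildtype value of at least 5, 86 with 0.5 added to both values, 109 when scaled by summed gene reads and 126 when scaled by the median ratio, which holds all 114. Without a minimum value it stayed 114, but this let in few more IDs (10223 against 10075 with the minimum). The scalings moved all log2 ratios by 0.02 and -0.05. Introns of these genes at least 2-fold higher by library total, 3 with 20 reads or more, numbered 10 with 10 reads and 0 with 50 reads. Relative to their gene, lower introns, 12 with 20 reads, numbered 22 with 10 reads, 3 with 50 reads and 2 with a pseudocount of 5, and higher introns, 23 with 20 reads, numbered 49 with 10 reads and 9 with 50 reads. Deeper minimums leave fewer introns, 136 at 50 reads against 322 at 10. The counts for the enzyme, lens, intestine and liver lists and for introns lower by library total stayed within 1.5 times of their values under each alternative run. No paired analysis was possible because there is 1 library a group, and for the same reason no library could be left out. Depth limits most the IDs with few reads. Of the 40 IDs with under 100 recovered wildtype reads, some may lack a common factor, among them sult2st1 at a wildtype value of 116. The count of 74 rests on the same recovered reads.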
